A study of Mus musculus with 6 samples.

Results

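The regions described here are stretches of the mouse genome that carried called H3K27ac in all 3 treatments of A9 cells, and whose called length at least doubled with IFN-γ but not with curcuphenol. Called regions of the IFN-γ, curcuphenol and DMSO lists were joined wherever they shared 1 bp or more, which gave 70818 merged regions, of which 27636 held a called region from every list. Members were chosen by the readout itself. A merged region under 10 kb was kept when its IFN-γ length was at least 2 times its DMSO length and its curcuphenol length was under 2 times its DMSO length. This left 1037 of the 27236 common regions under 10 kb, or 3.81%. Of the rest, 1384 doubled with curcuphenol only, 1370 doubled with both treatments and 23445 doubled with neither, and these 3 sets serve as comparisons.

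A9 is a metastatic clone with little surface MHC class I. It comes from TC1, a line of C57BL/6 mouse lung cells transformed with the E6 and E7 genes of HPV16 and an activated H-ras. Cells were treated for 48 h with 1 dose of IFN-γ, with 0.00167 µmol curcuphenol, or with 1% DMSO, the vehicle of all groups. Curcuphenol is a phenol found in plants and in some marine sponges, and the study synthesized it in racemic form for biological evaluation. For each treatment 130000 live cells gave 1 H3K27ac library and 1 input library. No library was replicated. No difference between treatments could therefore be set against replicate error, and no test between treatments was run. Percentages below carry exact Clopper-Pearson 95% intervals, which cover counting error over regions only. The called lengths come from many cells, so a broader mark per cell and a mark in more cells cannot be told apart.

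H3K27ac, acetylated lysine on histone H3, marks active promoters and enhancers, and it often broadens into the gene body where a promoter is strongly active. IFN-γ binds its receptor and activates the kinases JAK1 and JAK2. Signalling through them leads to binding at the interferon-gamma activated site (GAS), a palindrome written here as TTCNNNGAA. The pathway also induces interferon regulatory factors (IRFs), which bind the interferon-stimulated response element (ISRE), whose core is written here as GAAANNGAAA. Targets of this pathway include MHC class I molecules, the machinery that loads them with peptide, and GTPases that act on intracellular pathogens.

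Sequences from members are shown first, because they place letters of both elements at named interferon genes. All are from the RefSeq copy of GRCm38.p6 (mm10), read 5′ to 3′ on the strand given. The chosen matches to GAS or the ISRE core are in capitals, with 15 flanking bases in lower case. In Zbp1 and Nlrc5 another ISRE core match overlaps the one in capitals and is left partly in lower case. The first group holds both elements within a span of 50 bp. In Igtp, Zbp1, Gbp7 and Wars the pair lies upstream of the start site, by 35, 79, 65 and 143 bp. In Nlrc5 it lies in an intron 12743 bp into the gene, and near Coq2 it is intergenic with the elements overlapping. All 6 pairs lay within bp already called with DMSO, beside 11 of all 15 pairs found outside exons in members. Wars and Coq2 were picked after their pairs had been seen.
Igtp, chr11:58199496-58199546, + strand: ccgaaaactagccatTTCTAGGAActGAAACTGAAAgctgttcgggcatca
Zbp1, chr2:173218971-173219031, + strand: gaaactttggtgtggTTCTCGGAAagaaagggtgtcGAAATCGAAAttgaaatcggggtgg
Gbp7, chr3:142530234-142530307, - strand: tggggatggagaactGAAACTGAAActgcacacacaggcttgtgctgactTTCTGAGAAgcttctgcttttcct
Wars, chr12:108893323-108893385, - strand: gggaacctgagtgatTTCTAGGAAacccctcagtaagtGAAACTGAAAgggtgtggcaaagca
Nlrc5, chr8:94485479-94485533, - strand: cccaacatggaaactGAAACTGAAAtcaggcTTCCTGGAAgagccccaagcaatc
Coq2, chr5:100636958-100637003, + strand: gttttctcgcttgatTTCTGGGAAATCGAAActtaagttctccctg

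The second group shows ISRE core matches with no GAS within the 50 bp span. They come from members of the MHC class I and antigen processing lists, from a guanylate-binding protein and from a distal member. Each of these members also held a GAS farther away in its region. The Tap1 match lies upstream of Tap1, 330 bp into Psmb9, which starts in the other direction. The H2-T23 and Gbp2 matches lie 120 and 54 bp upstream of their start sites. The H2-K1 match lies in an intron 713 bp into the gene, and was called with IFN-γ but not with DMSO. The Parp9 match is intergenic, 19564 bp upstream.
Tap1, chr17:34186980-34187019, + strand: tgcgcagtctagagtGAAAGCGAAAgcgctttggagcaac
H2-T23, chr17:36032801-36032840, + strand: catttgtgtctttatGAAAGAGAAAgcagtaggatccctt
H2-K1, chr17:33999600-33999639, + strand: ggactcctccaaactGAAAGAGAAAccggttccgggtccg
Gbp2, chr3:142620589-142620628, - strand: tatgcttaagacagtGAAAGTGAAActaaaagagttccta
Parp9, chr16:35918886-35918925, - strand: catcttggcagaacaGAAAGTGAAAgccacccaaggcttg
A match is a description of these letters and not evidence of binding. Its frequency in members and in the comparison sets is given further on.

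The IFN-γ list covered 81.1 Mb in 55622 called regions, the curcuphenol list 70.3 Mb in 48763, and the DMSO list 69.8 Mb in 47899, so the IFN-γ list was 1.16 times as long as the DMSO list. Cell identity was checked on promoters carrying a called region. Mesenchymal markers had one at 7, 6 and 6 of 8 genes with IFN-γ, curcuphenol and DMSO. Epithelial markers had one at 1, 0 and 1 of 8 genes, leukocyte markers at 1 of 7 genes under each treatment (Cd68), and endothelial markers at 0 of 5 under each.

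Members had a median called length of 1928 bp with IFN-γ, 735 bp with curcuphenol and 732 bp with DMSO. Their IFN-γ to DMSO ratio had a median of 2.39, quartiles of 2.15 and 2.93, and a maximum of 16.1. Of the members, 603 had a ratio under 2.5, 245 had 3 or more and 91 had 4 or more. The curcuphenol to DMSO ratio had a median of 1.21. It was below 1 in 368 members and between 1.5 and 2 in 317, so "only" describes a threshold, not the absence of any gain with curcuphenol. Members were short in DMSO next to the regions that doubled with neither treatment, whose median DMSO length was 1839 bp. The other doubled sets were short too, with medians of 698.5 bp for curcuphenol only and 396 bp for both. Under 500 DMSO bp were found in 325 members (31.3%), 33.3% of curcuphenol only and 66.0% of both.

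Regions on either side of the thresholds were much alike. Regions near Raet1d, Ly6e and Kif21a entered at a ratio of exactly 2, while one near Clk1 stayed out with 2259 bp with IFN-γ and 1130 bp with DMSO. In all, 167 members had a ratio under 2.1, and 230 regions lay between 1.9 and 2 on the other side. At the curcuphenol threshold, a region near Tmem140 entered with 1853 bp with curcuphenol and 927 bp with DMSO. An intronic region of Cd274, the gene of the checkpoint ligand PD-L1, was left out because its curcuphenol length of 1647 bp just passed 2 times its DMSO length of 823 bp, beside 1675 bp with IFN-γ.

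**Figure D1:**
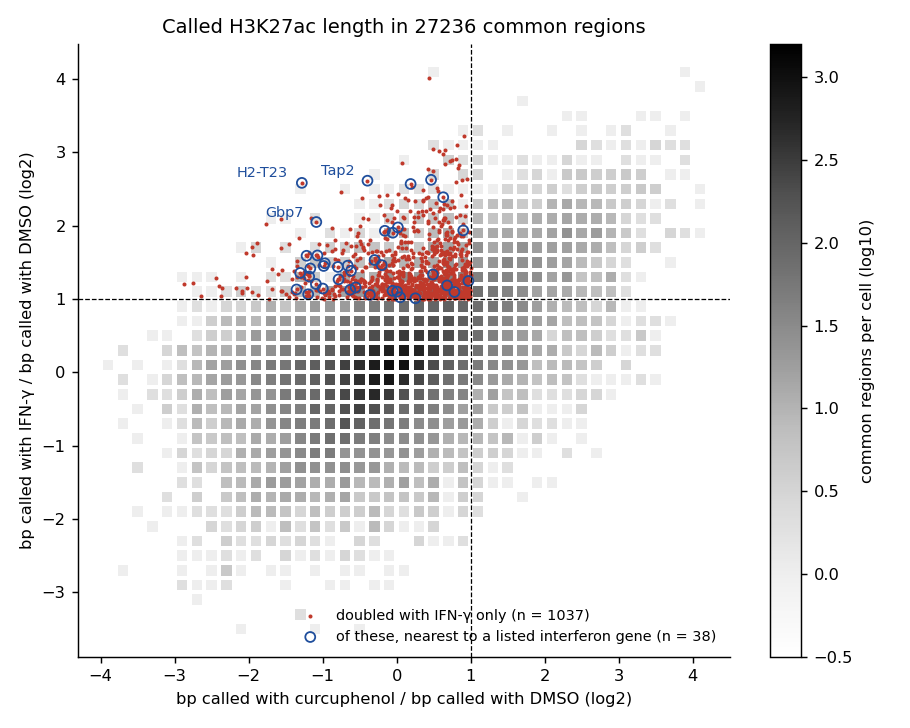
Ratio of called bp to DMSO in 27236 common regions, with curcuphenol on the x axis and IFN-γ on the y axis, both as log2; grey squares give the number of regions per cell, red points the 1037 members and blue circles the 38 members nearest to a listed interferon gene. Dashed lines mark the thresholds of 2, and the circled members reach far to the left, where the curcuphenol length was below the DMSO length.

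The added length mostly surrounded what DMSO already had. The DMSO bp lay wholly inside the IFN-γ bp in 872 members (84.1%, 81.7 to 86.3), and 884 (85.2%, 82.9 to 87.4) gained bp on both sides. Other doubled regions gained in the same way, with 88.2% for the curcuphenol gain in curcuphenol only and 85.6% for the IFN-γ gain in both. Gain was lopsided in 442 members, with 75% or more of the new bp on 1 side. In 202 members a single IFN-γ region was merged with 2 or more DMSO regions (19.5%, 17.1 to 22.02). Counted on the IFN-γ list in every set, this was 9.61% for curcuphenol only, 7.66% for both and 8.74% for neither. The curcuphenol gain in curcuphenol only put bp between DMSO regions in 281 of 1384 regions. The IFN-γ gain did so in 217 of 1037 members and 149 of 1370 regions of both, so members resembled curcuphenol only in this. These shares come from the same called regions as the rule and are a description. In 1 member the IFN-γ and DMSO bp did not meet at all.

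Among 15 lists of interferon and antigen presentation genes, 33 of the 159 genes that were nearest to any common region were nearest to a member, or 20.8% (14.7 to 27.9). Over all genes the share was 960 of 13408 (7.16%), the figure to set beside each single list below. In 6 control lists (ribosomal proteins, housekeeping genes, collagens, homologous recombination, NF-kB and AP-1 factors) it was 7 of 63 genes, or 11.1% (4.59 to 21.6), an interval that overlaps that of the interferon lists. Counted by region, 38 of 284 common regions nearest to interferon list genes were members (13.4%, 9.65 to 17.9), against 7 of 180 nearest to control list genes (3.89%, 1.58 to 7.85), beside 3.81% of all common regions. When bp were divided by the total of each list, 11 of the 33 interferon genes were no longer near a member, namely H2-K1, Gbp2, Gbp3, Ifi35, Parp8, Parp10, Parp12, Ptpn2, Tlr4, Trim21 and Vsir. The 38 members near interferon genes had median lengths of 3536 bp with IFN-γ, 809 bp with curcuphenol and 1260.5 bp with DMSO. The other 999 members had 1907, 728 and 717 bp in that order.

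Curcuphenol length was below DMSO length in 26 of the 38 members near interferon genes (68.4%, 51.3 to 82.5), beside 342 of the other 999 (34.2%, 31.3 to 37.3). The share was 63.8% (63.2 to 64.4) in regions doubled with neither, inside the interval of the members near interferon genes. Over all DMSO lengths it therefore does not set these members apart from those regions. Regions doubled with neither had a longer median DMSO length, 1839 bp, and no comparison with them at like length was made. Both lengths were used by the rule, and the shares are a description. Longer DMSO regions went with this: among members with 1000 or more DMSO bp the counts were 20 of 23 (87.0%, 66.4 to 97.2) and 143 of 313 (45.7%, 40.1 to 51.4). Below 1000 bp they were 6 of 15 (interval 16.3 to 67.7%) and 199 of 686 (29.0%, 25.6 to 32.6), with overlapping intervals. The start of a listed gene lay within the DMSO bp of 17 of the 38.

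MHC class I genes supplied 4 of their 10 genes near common regions. H2-T23 encodes Qa-1, a nonclassical class I molecule that presents leader peptides to natural killer cells. Its member, at chromosome 17, 36029324 to 36037107, held 7784 bp with IFN-γ, 534 bp with curcuphenol and 1297 bp with DMSO. The IFN-γ length was 6.00 times the DMSO length and was gained on both sides of the start site, by 4018 bp upstream and 2469 bp downstream. H2-K1, which encodes the classical molecule H-2K, held 4127, 1544 and 1983 bp with IFN-γ, curcuphenol and DMSO over its start site. H2-M3, a nonclassical molecule that presents formylated peptides, had a member 4420 bp into the gene with 2190, 647 and 418 bp in the same order. A member nearest to H2-Q1, 18320 bp upstream of it, held 1668, 929 and 661 bp.

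Other class I genes fell short of the threshold. The B2m region, at the gene of the class I light chain, held 7055 bp with IFN-γ, 3948 bp with curcuphenol and 4727 bp with DMSO, a ratio of 1.49. The start of H2-D1 held 4574, 2141 and 2610 bp, a ratio of 1.75. A separate region 4859 bp upstream of H2-D1 doubled with curcuphenol only, with 1936 bp with IFN-γ, 3315 bp with curcuphenol and 1020 bp with DMSO. No MHC class II gene was nearest to a common region.

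Of the antigen processing genes, 3 of 12 were nearest to a member. Tap1 and Tap2 encode the subunits of the transporter that carries peptides into the endoplasmic reticulum. The Tap1 member also covers the start of Psmb9, an immunoproteasome subunit, and held 6703 bp with IFN-γ, 1574 bp with curcuphenol and 1757 bp with DMSO. Tap2 held 2824, 351 and 461 bp, a ratio of 6.13. Nlrc5, the transactivator of class I genes, had 2 members. The one 12484 bp into the gene held 2907 bp with IFN-γ, 485 bp with curcuphenol and 1088 bp with DMSO. The one 15728 bp upstream held 6835, 5642 and 2879 bp, so curcuphenol also lengthened it, to 1.96 times the DMSO length.

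The chaperone and peptidase genes of this list were not members. Tapbp (tapasin) held 2767, 1939 and 2123 bp with IFN-γ, curcuphenol and DMSO. Erap1, which trims peptides, held 1326, 1264 and 1654 bp, and Calr (calreticulin) 2257, 2016 and 2271 bp. The proteasome activator gene Psme1 came closer, with 2257, 1250 and 1293 bp and a ratio of 1.75.

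Guanylate-binding proteins attack the vacuoles of intracellular pathogens, and 4 of 8 such genes were nearest to a member. All 4 members covered a start site. All 4 were shorter with curcuphenol than with DMSO, as were 63.8% of the regions doubled with neither. Gbp7 held 7104 bp with IFN-γ, 808 bp with curcuphenol and 1714 bp with DMSO. Gbp2 held 6872, 1399 and 2979 bp, Gbp3 5903, 1232 and 2820 bp, and Gbp8 2428, 517 and 896 bp. Igtp, an immunity-related GTPase of the same defence, held 5137, 810 and 1700 bp. Gbp6 and Gbp9 stayed below the threshold at their promoters, with ratios of 1.40 and 1.41.

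Among antiviral effectors, 5 of 22 genes were nearest to a member, and as many, 5 of 22, to a region doubled with both treatments. Samhd1, which degrades nucleotides needed for reverse transcription, had a member over its start with 8958 bp with IFN-γ, 1630 bp with curcuphenol and 3193 bp with DMSO. Its IFN-γ bp filled gaps between 3 DMSO regions. A second Samhd1 member, 12770 bp upstream in an intron of Rbl1, held 1988, 451 and 900 bp. Oasl2, an oligoadenylate synthetase-like protein, held 6101, 1470 and 2531 bp, and Mx1, a dynamin-like GTPase, 3989, 1259 and 1447 bp. Ifi35 had 2 members, of which the larger held 6242, 4403 and 2743 bp, a curcuphenol ratio of 1.61. A member 5566 bp from Bst2 (tetherin, which holds budding virions at the membrane) held 4041, 932 and 1473 bp. The promoters of Ifit1, Oas1b and Oas3 had ratios of 0.92, 1.19 and 1.11.

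Among upstream parts of the pathway, none of 12 receptor, JAK and STAT genes was nearest to a member. The share over all genes was 7.16%, so a count of none among 12 does not set these genes apart. The start sites of Ifngr1 and Ifngr2, the receptor chains, had IFN-γ to DMSO ratios of 0.85 and 1.10, and that of Jak2 had 0.92. Of 9 IRF genes only Irf2 was nearest to a member (11.1%). By region, 3 of the 25 common regions nearest to IRF genes were members, beside 3.81% of all common regions. Irf2 had these 3 members inside the gene, 52349, 89106 and 104126 bp from the start. They held 1427, 3134 and 4638 bp with IFN-γ, against 231, 1224 and 1873 bp with DMSO. Curcuphenol gave 319, 496 and 826 bp there, below DMSO in the longer pair. The Irf2 promoter itself had a ratio of 1.20.

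Feedback genes gave 3 members, nearest to 3 of 14 genes, and 3 of 14 were nearest to a region doubled with both treatments. The one nearest to Socs1, an inhibitor of JAK kinases, lay 81704 bp away in an intron of Clec16a, with 2226 bp with IFN-γ, 318 bp with curcuphenol and 739 bp with DMSO. Ptpn1 and Ptpn2, phosphatases that act on JAKs and STATs, each had an intronic member, with 1264, 325 and 321 bp and with 1387, 705 and 682 bp in the same order. The list of ISG15 pathway and nucleic acid sensing genes gave 2 of 19 genes (10.5%), beside 7.16% over all genes. The member of Zbp1, a sensor of Z-form nucleic acid, held 6425, 1604 and 2460 bp. It gained 3880 bp downstream of the start against 85 bp upstream. An intergenic member 67676 bp from the start of Tlr4 held 911, 732 and 426 bp, a curcuphenol ratio of 1.72.

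PARP enzymes, which attach ADP-ribose to proteins, gave 4 of 12 genes. Parp10 and Parp12 had members over their start sites with 4443, 1317 and 2034 bp and with 4276, 1903 and 1977 bp with IFN-γ, curcuphenol and DMSO. The Parp8 member lay in an intron 74705 bp into the gene, with 3795, 679 and 1733 bp. The intergenic Parp9 member held 3277, 605 and 1198 bp. Of TRIM genes, Trim21, an intracellular antibody receptor, held 1784, 545 and 799 bp at its start, and a member in Trim12a nearest to Trim5 held 1651, 317 and 278 bp.

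The chemokine list gave 2 of 10 genes. The member nearest to Cxcl11, a ligand of CXCR3, lay 5717 bp upstream of it in an intron of Art3, and held 8577 bp with IFN-γ, 2412 bp with curcuphenol and 2964 bp with DMSO. A member 10614 bp upstream of Ccl5, which encodes a chemokine that attracts T cells, held 1922, 937 and 502 bp. The body of Ccl5 itself doubled with both treatments and is not a member, with 3549, 4386 and 243 bp. Among checkpoint genes Vsir, which encodes VISTA, had an intronic member with 2184, 1293 and 1084 bp, a ratio of 2.01.

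**Figure D2:**
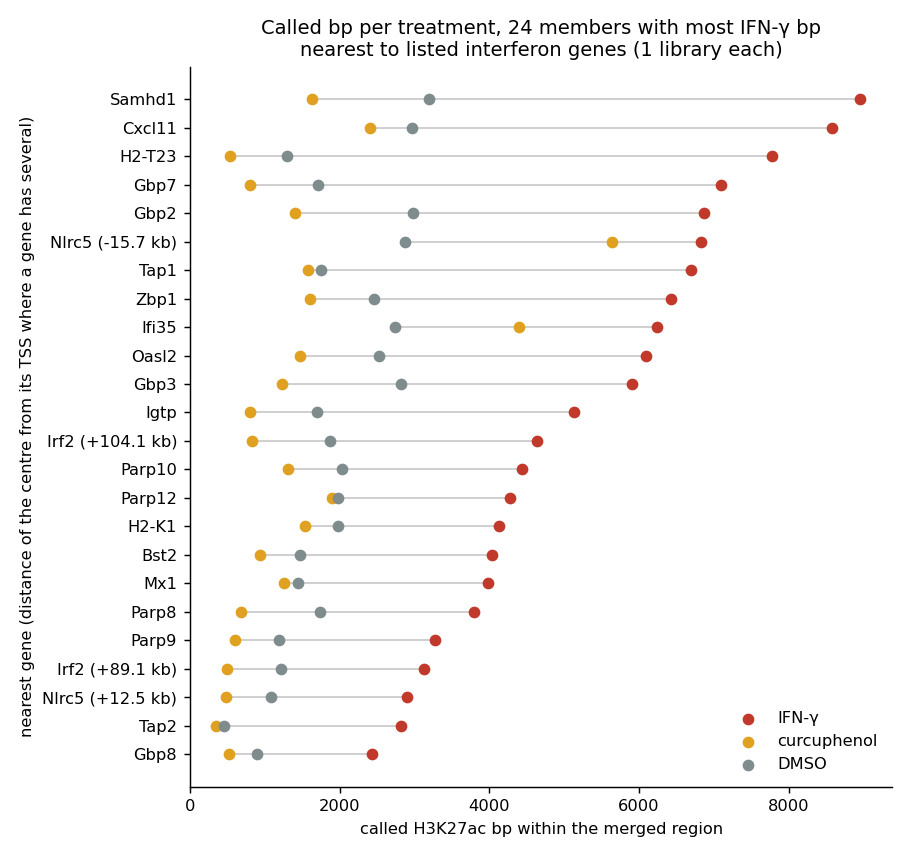
Called H3K27ac bp (x axis) with IFN-γ, curcuphenol and DMSO in the 24 members with the most IFN-γ bp among those nearest to listed interferon genes (y axis), 1 library per point. Samhd1 reached 8958 bp with IFN-γ, and in most rows the curcuphenol point lies left of the DMSO point, with the upstream Nlrc5 member and Ifi35 as exceptions.

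Several control genes were also nearest to a member, each away from its start. They were 3 of 12 housekeeping genes, 2 of 11 collagens, 1 of 12 homologous recombination genes and 1 of 11 ribosomal protein genes. The housekeeping count equals the 3 of 12 of antigen processing, so that count alone does not set antigen processing genes apart. Members near Ywhaz, Actb and Ppia lay 31456 bp downstream, 25224 bp upstream and 4714 bp downstream of the starts. The largest of them, near Ywhaz, held 8365, 5002 and 4097 bp with IFN-γ, curcuphenol and DMSO, which is 2.04 times the DMSO length. None of the 7 control members contained a start site within its DMSO bp, against 17 of the 38 near interferon genes. Over all members the share was 68 of 1037 (6.56%), so a count of none among 7 does not set the control members apart. Control members near collagen genes lay 139330 bp from Col4a2 and 75476 bp from Col5a1. Neither NF-kB nor AP-1 factor genes were nearest to a member (0 of 10 and 0 of 7 genes).

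**Figure D3:**
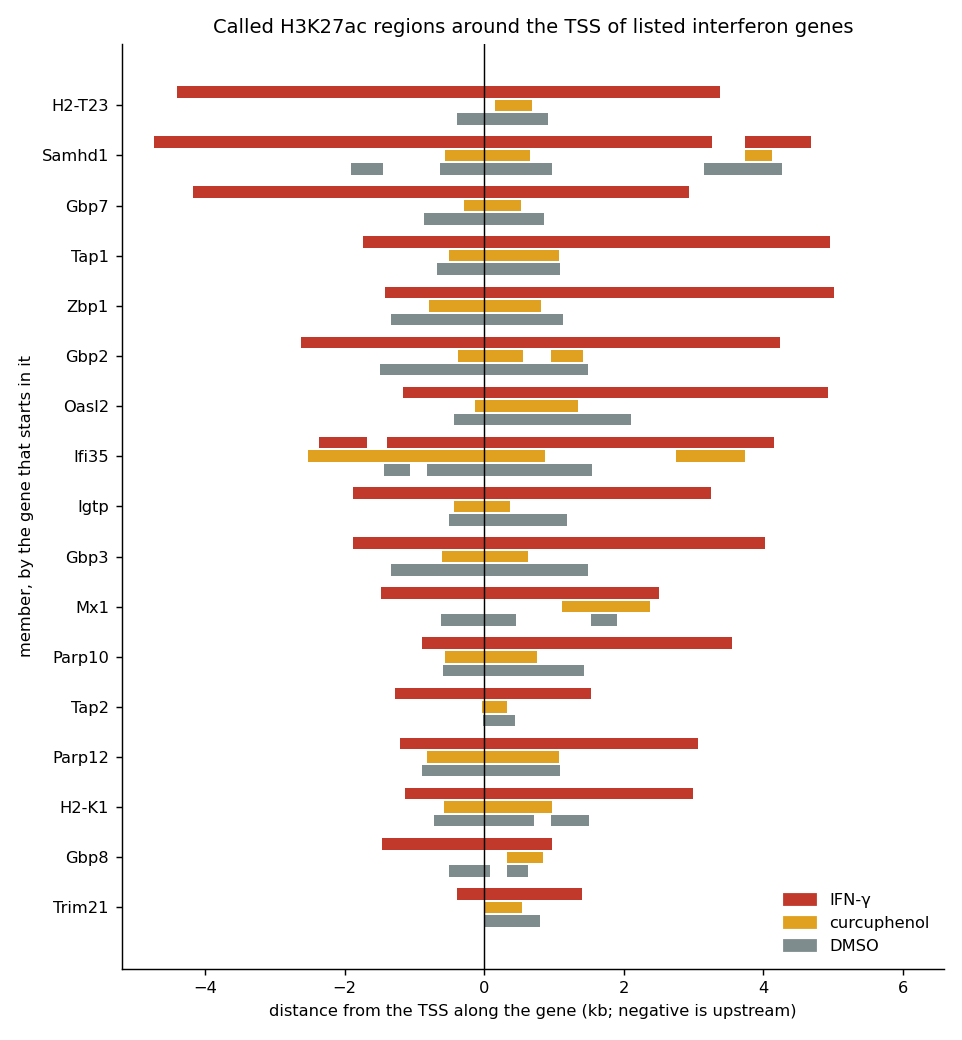
Called H3K27ac regions in the 17 members whose nearest listed interferon gene starts within the DMSO bp, drawn to scale as distance from that transcription start site (TSS) in kb along the gene, with IFN-γ above curcuphenol and DMSO. In H2-T23 the IFN-γ region extends 4018 bp beyond DMSO upstream and 2469 bp downstream, and in Zbp1 85 bp upstream and 3880 bp downstream.

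The 10 members with the most added bp combined listed genes with others. H2-T23, Samhd1, Cxcl11, Gbp7 and Tap1 are described above. Clip2, which encodes a microtubule-binding linker protein, had an intronic member with 7291, 2130 and 1562 bp with IFN-γ, curcuphenol and DMSO. A region 3715 bp upstream of Trim30c held 7968, 631 and 2334 bp. Glipr2, a Golgi-associated protein, held 9456, 1710 and 3938 bp in a member 10825 bp into the gene, and had a second member over its start with 4463, 973 and 969 bp. An intergenic member 68264 bp from BB123696 was the longest of all with IFN-γ, at 9668 bp, against 571 bp with curcuphenol and 4195 bp with DMSO. The member at 8430423G03Rik held 7582, 3731 and 2437 bp.

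Ranked by ratio among members with 500 or more DMSO bp, Syf2, a splicing factor gene, came first. Its member, 5883 bp into the gene, held 4467 bp with IFN-γ, 1333 bp with curcuphenol and 725 bp with DMSO, a ratio of 6.16. H2-T23 was next. An intronic member of Pdpn, which encodes the mucin-like protein podoplanin, held 3691, 397 and 669 bp. Intergenic DNA 43107 bp from Mb21d2 held 2249, 454 and 509 bp, and introns of Dock10 and Scara5 (Pbk being the nearest start) held 2614, 440 and 605 bp and 2820, 1017 and 652 bp. Introns of 1600020E01Rik and AU020206 had ratios of 4.38 and 4.34. Without a minimum of DMSO bp the largest ratio, 16.1, was in an intron of Sox2ot, where DMSO had only 287 bp.

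Members were mostly scattered. Of the 960 nearest genes 896 had 1 member each. Arhgef3, which encodes an exchange factor for RhoA, had the most with 6, all intronic, holding 1702 to 7134 bp with IFN-γ and 469 to 2631 bp with DMSO. Macroh2a3, in the Pvt1 locus, had 4. When members within 50 kb were grouped, 845 stood alone. The largest group had 5 members around Nlrc5 on chromosome 8, 94432039 to 94493373, with 21531 bp with IFN-γ, 10195 bp with curcuphenol and 7859 bp with DMSO in sum. Chromosomes 17 and 11 had the highest shares of common regions that were members, at 4.80% (3.66 to 6.18) and 4.37% (3.49 to 5.41). Both intervals hold the share over all common regions, 3.81%, so these chromosomes are not set apart. Chromosome 13 had the lowest among chromosomes with a member, at 2.003% (1.32 to 2.90).

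By the annotation at their centre, 528 members were intronic (50.9%, 47.8 to 54.0), 366 intergenic (35.3%, 32.4 to 38.3) and 56 at promoters (5.40%, 4.105 to 6.96). Promoters were taken as the 1000 bp before a TSS and the 100 bp after it. Promoter shares were 4.70% (3.64 to 5.95) in regions doubled with curcuphenol only, 2.77% (1.97 to 3.79) in those doubled with both and 16.1% (15.6 to 16.6) in those doubled with neither. Members had a median distance to the nearest TSS of 15719 bp. It was 21400 bp for curcuphenol only, 20377 bp for both and 8490 bp for neither. The interval of the promoter share of members overlapped that of curcuphenol only, lay above that of both and below that of neither. Within 5 kb of a TSS lay 23.05% (20.5 to 25.7) of members, against 20.2% (18.1 to 22.4) of curcuphenol only, 16.7% (14.8 to 18.8) of both and 44.6% (44.0 to 45.3) of neither.

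**Figure D4:**
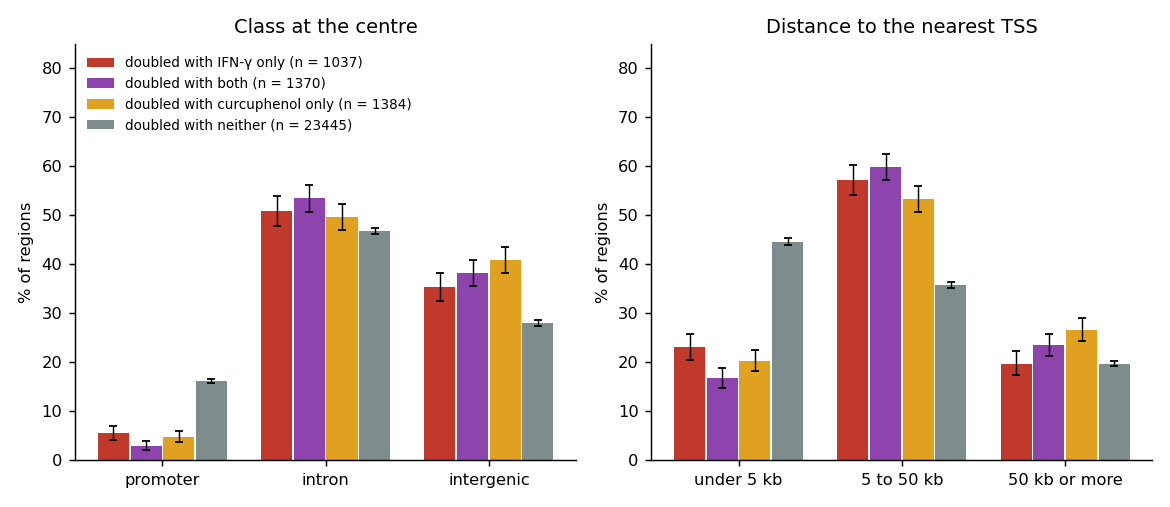
Percentage of regions (y axis) by class at the centre and by distance to the nearest TSS, for the 1037 members and the 3 comparison sets, with exact 95% intervals as bars. Promoters held 5.40% of members and 16.1% of regions doubled with neither.

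A TSS lay within the DMSO bp of 68 members (6.56%, 5.13 to 8.24). Of the 64 with starts on 1 strand only, 41 gained more bp downstream than upstream (64.1%, 51.1 to 75.7), with medians of 733.5 bp downstream and 465 bp upstream. The share was 56.0% (44.7 to 66.8) for the curcuphenol gain in regions doubled with curcuphenol only, and 55.7% (54.3 to 57.1) for the IFN-γ gain in regions doubled with neither, so the intervals overlap. Besides the listed genes, Wars, the tryptophanyl-tRNA synthetase gene, had a member over its start with 6039, 4100 and 2158 bp with IFN-γ, curcuphenol and DMSO. Keap1, whose product directs NRF2 to degradation, had one with 5721, 2242 and 2719 bp. Il18bp, which encodes a secreted inhibitor of interleukin-18, had one with 3730, 1864 and 1577 bp. These 3 were picked after their values had been seen.

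Sequence at the centre of the regions was not used to choose them. The ISRE core GAAANNGAAA, on either strand, occurred in the central 500 bp of 123 members, or 11.9% (9.96 to 14.0). It occurred in 6.07% (4.87 to 7.46) of regions doubled with curcuphenol only, 8.03% (6.64 to 9.60) of those doubled with both and 7.35% (7.02 to 7.69) of those doubled with neither. The interval of the members lay above the intervals of the 3 other sets. GAS, which reads the same on both strands, had overlapping intervals in this window. It occurred in 15.4% (13.3 to 17.8) of members, against 14.9% (13.0 to 16.9), 16.7% (14.8 to 18.8) and 14.4% (13.9 to 14.8) in the same order.

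Of the remaining motifs searched on both strands, TGANTCA, bound by AP-1, was in 32.4% (29.6 to 35.3) of members, below the 42.1% (39.4 to 44.7) of curcuphenol only and the 45.5% (42.9 to 48.2) of both, and close to the 31.2% (30.6 to 31.8) of neither. The NF-kB motif was in 1.16% (0.599 to 2.01) of members, 0.0723% (0.00183 to 0.402) of curcuphenol only, 0.876% of both and 0.836% of neither. The E-box CACGTG was in 7.14% and the TEAD motif GGAATG in 28.9% of members, with intervals overlapping those of curcuphenol only and both. The TEAD share was 25.3% (24.7 to 25.9) in regions doubled with neither, below the interval of members (26.2 to 31.8). Of the members with an ISRE core, 23 also held a GAS.

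Many ISRE matches lay in sequence that the genome file marks as repeat. With these left out, 61 members kept a match, or 5.88% (4.53 to 7.49), against 2.67% (1.89 to 3.67), 3.28% (2.41 to 4.37) and 3.43% (3.196 to 3.67) in curcuphenol only, both and neither, and the interval of members again lay above the others. Base composition differed between the sets, with a median GC content of 48.0% in members, 45.2% in curcuphenol only, 47.2% in both and 48.6% in neither. Within windows under 45% GC the ISRE shares were 17.3% (13.1 to 22.2), 6.97% (5.17 to 9.17), 12.6% (9.63 to 16.0) and 10.9% (10.2 to 11.6). At 50% GC or more they were 7.57% (5.09 to 10.8), 3.46% (1.59 to 6.47), 5.90% (3.85 to 8.58) and 4.43% (4.04 to 4.84). From 45 to under 50% GC they were 11.9% (8.82 to 15.6), 6.22% (4.17 to 8.87), 5.80% (3.92 to 8.22) and 8.11% (7.399 to 8.87). Members had the highest share in each band. Their interval overlapped that of both under 45% GC, those of curcuphenol only and neither narrowly in the middle band, and those of curcuphenol only and both at 50% GC or more.

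The shares were also taken by DMSO length, a value that the rule used. With 500 or more DMSO bp, 13.5% (11.1 to 16.2) of members had an ISRE core, against 6.39% (4.90 to 8.17), 6.44% (4.39 to 9.06) and 7.36% (7.02 to 7.71). Under 500 bp the share was 8.31% (5.55 to 11.9), and the intervals of all sets overlapped. The intervals of these groups of members overlap each other, and the difference between them was not tested. In introns and intergenic DNA it was 13.0% (10.8 to 15.4), against 6.39%, 8.13% and 7.99%. At promoter centres it was 1 of 56 members, or 1.79% (0.0452 to 9.55). Of the ISRE matches printed above, only that at H2-K1 lies in the central 500 bp of its region. The other printed matches lie outside that window and are not in these counts.

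ISRE core matches in members clustered at the region DMSO already had. In the 200 bp just left of the centre of the widest DMSO region, 7.04% of members had an ISRE core, against 3.61%, 3.94% and 3.15% in curcuphenol only, both and neither. GAS in the same 200 bp was in 9.64% of members, against 5.92%, 6.50% and 6.05%, and in the next 200 bp to the right in 7.52%, against 6.94%, 8.18% and 6.62%. From 1800 to 2000 bp to the right the ISRE core share was 3.28%, against 3.32%, 3.28% and 2.81%. The 200 bp just left of the centre are where the ISRE core line of members peaks, and these bin shares carry no interval. In the central 500-bp window the GAS intervals of the sets overlapped. Outside repeats the density of ISRE matches was 0.163 per kb (0.135 to 0.194) in the DMSO bp of members and 0.0922 per kb (0.0752 to 0.112) in the IFN-γ bp beyond them. In regions doubled with neither these densities were 0.0828 (0.0801 to 0.0856) and 0.0657 per kb (0.0597 to 0.0722), with exact Poisson intervals.

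**Figure D5:**
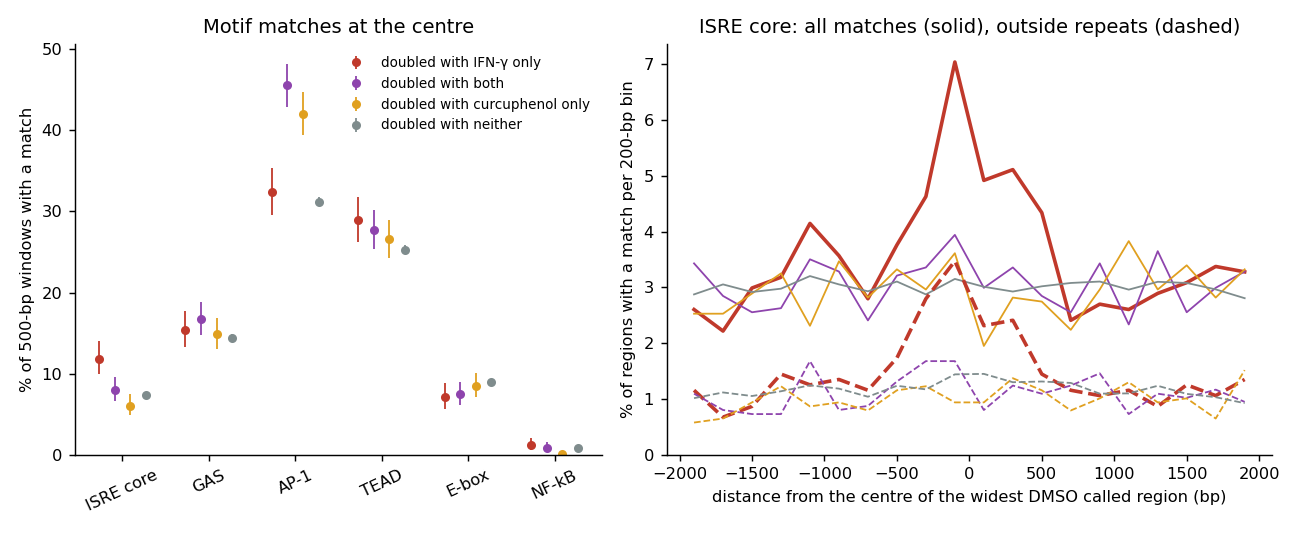
Left, percentage of 500-bp windows with a motif match, with exact 95% intervals, for members and the 3 comparison sets. Right, percentage of regions with an ISRE core match in 200-bp bins (y axis) against distance from the centre of the widest DMSO called region in bp (x axis), with all matches as solid and matches outside repeats as dashed lines; the line of the members peaks at 7.04% beside the centre.

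Within members the ISRE share was 15.1% (10.4 to 20.8) where the curcuphenol length was under 0.75 times the DMSO length, 14.8% (9.81 to 21.1) from 0.75 to 1, 11.4% (8.24 to 15.2) from 1 to 1.5 and 8.83% (5.95 to 12.5) from 1.5 to 2, with overlapping intervals. By IFN-γ ratio it was 12.1% (9.61 to 15.0) from 2 to 2.5, 10.05% (6.16 to 15.3) from 2.5 to 3, 10.4% (6.06 to 16.3) from 3 to 4 and 16.5% (9.53 to 25.7) at 4 or more, again with overlapping intervals.

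A GAS and an ISRE core within a span of 50 bp, both outside repeats, occurred in 17 members (1.64%, 0.958 to 2.61). The counts were 4 of 1384 (0.289%, 0.0788 to 0.738) for curcuphenol only, 10 of 1370 (0.730%, 0.351 to 1.34) for both and 156 of 23445 (0.665%, 0.565 to 0.778) for neither. Per Mb of merged sequence these are 6.96, 1.23, 3.37 and 2.51 regions. This pairing was looked for after the separate matches had been seen.

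Members tended to have IFN-γ regions nearby that no other list held. Within 10 kb, 373 members had such a region (36.0%, 33.0 to 39.0), against 14.6% (12.8 to 16.6) of curcuphenol only, 21.5% (19.3 to 23.7) of both and 24.1% (23.5 to 24.6) of neither. Regions called only with curcuphenol lay within 10 kb of 12.5% (10.6 to 14.7) of members and of 27.4% (25.05 to 29.8) of curcuphenol only. These counts come from the same 3 libraries as the rule and are a description.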

How the data were processed

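H3K27ac ChIP-seq of A9 cells was read from 3 deposited lists of called regions, 1 per treatment; each holds chromosome, start and end in mm10 and no height or p-value. Per the labels and the study's methods, the authors aligned reads with BWA mem (0.7.17 in the submitters' processing notes) and called regions in paired-end mode with MACS2 (2.1.2) against the input of the same treatment at a false discovery rate of 0.01. Read depth is not in these lists, so it is unknown here, and length called can move with it. Lists were merged by 1 bp of overlap and called bp counted per list, without scaling, in Python 3.11.15 with pandas 2.3.3, numpy 2.4.6 and scipy 1.17.1; figures used matplotlib 3.10.9. Merging and motif search were tested on simulated data. Classes, in Homer's order, nearest TSS and genes came from curated RefSeq transcripts of GRCm38.p6; motifs and GC from its genome, in 500-bp windows.

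Named were the 10 members with the most added bp, the 10 with the largest ratio among those with at least 500 DMSO bp, up to 6 genes per gene list in alphabetical order, and genes nearest to 4 or more members. The members, the gene lists and the comparisons were chosen with earlier results of these data known. Alternatives covered merging, thresholds, scaling, size limits, promoter definition, nearest gene body and motif windows; matches outside repeats, windows of 40 to 50% GC and the class at the DMSO centre were added after seeing the data. Input libraries were not analysed here, and 1 domain is not reported here.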

Additional observations from a re-analysis of the deposited data

How the results depend on the processing

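With 1 library per treatment no replicate could be left out. No paired analysis was possible because each group has a single replicate. Across 145 values under other settings, 110 stayed within the interval of the reported value (for the count of members, within 1.5 times), and all 64 differences between sets kept their sign. The number of members moved to 2419 at a threshold of 1.5, 400 at 3 (of which 245 were shared), and 577 when bp were divided by the list total (573 shared). At these 3 settings 44.0%, 8.81% and 13.8% of interferon list genes were near a member. The excess over all genes was 28.7 percentage points at 1.5 and 5.90 at 3, against 13.6 as reported. At 1.5 the promoter share was 7.85%, the median IFN-γ length 2234 bp and the median curcuphenol to DMSO ratio 0.98; at 3 these medians were 1818 bp and 1.67. Median IFN-γ length was 2058 bp with regions up to 500 bp apart joined, 1852 bp under 5 kb, 2381.5 bp with at least 500 DMSO bp (ratio of curcuphenol to DMSO 1.10) and 1635.5 bp with exactly 1 called region per list.

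Gain on both sides was found in 87.9% (joined), 82.9% (threshold 1.5), 91.5% (threshold 3), 88.4% (scaled by list total), 89.2% (at least 500 DMSO bp) and 87.6% (at least 50% of the smallest length shared). The promoter share was 14.9% with 2000 bp on either side and 13.9% by any overlap, and its difference from regions doubled with neither was -24.1 and -25.6 points, or -12.5 with exactly 1 called region per list. The ISRE share was 21.99% in windows of 1000 bp, 8.12 points above neither and 10.06 above curcuphenol only. Outside repeats it was 5.88%, 2.46 and 3.21 points above them. The GAS difference stayed within 2.31 points. The lists hold no depth or height, so the part that sequencing depth had in called length was not tested.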

Other observations

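The size limit left out 400 common regions of 10 kb or more, of which 14 met both ratio conditions. Several lie at immunity-related GTPase genes on chromosome 11. A domain over Igtp and Irgm2 held 15618 bp with IFN-γ, 4336 bp with curcuphenol and 2179 bp with DMSO. One over Tgtp1 held 13610, 477 and 2966 bp, one over Ifi47 13097, 714 and 6394 bp, and one over Irgm1 12669, 3598 and 6063 bp. Gbp5 had a domain with 10077, 1476 and 2274 bp. A domain at Lif, a cytokine gene, held 14329, 6460 and 6475 bp.

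The same 59 bases holding an ISRE core and a GAS occurred in 2 members on chromosome 3, nearest to 5830417I10Rik and Gon4l.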
